A study of Rattus norvegicus with 18 samples.

Results

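Whole-brain gene expression at 6 weeks of age was compared with that at 3 weeks in rats labelled as the stroke-prone spontaneously hypertensive strain (SHRSP). The 6 arrays of this comparison, 3 biological replicates at each age, were taken by their titles from the 18 arrays of the series. The other 12 arrays came from Wistar-Kyoto rats (WKY, the normotensive strain) and from rats labelled as the spontaneously hypertensive strain (SHR), again with 3 at 3 weeks and 3 at 6 weeks each. All groups were untreated, all RNA was total RNA of the whole brain, and the sources used here do not give the sex of the rats. Whole brain mixes all its cell types, so fewer cells of a type and less RNA per cell cannot be told apart in any result below.

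Between these ages a rat passes from weaning towards sexual maturity. As background, this is the time in which forebrain myelin is laid down, precursor cells leave the cell cycle, fast sodium and potassium channels and late synaptic proteins accumulate, and the stress and reproductive hormone axes come into adult operation. SHR and SHRSP were both bred from WKY stock, and blood pressure climbs in both during and after this period.

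Each value is the log2 intensity of a probe minus the 75th percentile of its array, so a difference of 1 is a 2-fold difference, and levels are compared only within a probe. Errors are standard errors (SE) of a limma fit over the 18 arrays with n = 3 per group, and a gene was called raised or lowered at an adjusted p (Benjamini-Hochberg, 21207 genes) under 0.05. Over the 18 arrays, 81.8% to 87.5% of spots were well above background and none was saturated. Log2 values of the arrays labelled SHRSP correlated across genes with r of 0.9967 to 0.9971 within 3 weeks, 0.9957 to 0.9961 within 6 weeks and 0.9930 to 0.9939 between the ages; genes are not independent replicates. Slide 5 held the 3 arrays of 6 weeks and no others, and was scanned on a day of its own. Slide and age group therefore cannot be told apart, and slide entered only as a random block over all 18 arrays, with an estimated correlation of 0.2753. The WKY arrays were all on slide 1 at 3 weeks and all on slide 3 at 6 weeks. The 6-week arrays labelled SHR were all on slide 4. Scan day 1 held every 3-week array except replicate 3 labelled SHRSP, and no 6-week array. Age changes in WKY and under the SHR label are thus also tied to slide and scan day. Agreement between labels does not separate age from these.

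The labels need a statement before the results. At 3 weeks the arrays labelled SHRSP were low for Agtrap and high for Vegfb, while at 6 weeks they were high for Agtrap and low for Vegfb. The arrays labelled SHR ran the other way round, and WKY was high for both at both ages. The groups are therefore called the arrays labelled SHRSP and the arrays labelled SHR throughout, and no label was changed. The 3-week and 6-week arrays labelled SHRSP differed at such strain-marker genes as well as by age, so these genes are kept apart from the genes that changed with age in every label.

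Agtrap encodes a protein that binds the angiotensin II type 1 receptor and promotes its internalisation. Its probe (rn4 chr5:165154364-165154423, minus strand) read -4.33, -4.46 and -4.42 on the 3-week arrays labelled SHRSP and -0.26, -0.32 and -0.15 on the 6-week arrays. The ages did not overlap, and the difference was 4.16 ± 0.05 (SE, n = 3, adjusted p = 2.0e-15). In the arrays labelled SHR the difference was -4.45 ± 0.05, and in WKY it was 0.23. Averaged over the labels SHR and SHRSP, a value that does not depend on which of the 2 labels an array carries, Agtrap differed between the ages by -0.15.

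Vegfb, a growth factor of the VEGF family, showed the reverse. Its probe (rn4 chr1:209657830-209657889, minus strand) read 0.46, 0.37 and 0.47 at 3 weeks and -8.99, -8.82 and -9.24 at 6 weeks. None of the 6-week arrays was well above background, so the level was at least 220-fold lower at 6 weeks (adjusted p = 3.6e-15). That bound sets the mean of the brighter group against, on each dim array, the probe's own signal or the weakest signal that counted as well above background, whichever was higher. In the arrays labelled SHR the measured difference was 9.41, in WKY it was -0.03, and averaged over the 2 labels it was -0.02.

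Ephx2, the soluble epoxide hydrolase that inactivates vasodilator epoxides of arachidonic acid, was read by a 60-base probe whose match in rn4 spans 2484 bases of the minus strand, chr15:45535737-45538220, as a probe across an exon junction does. Haghl, a relative of the glyoxalase enzyme hydroxyacylglutathione hydrolase, was read by a probe with a span of 247 bases on the minus strand, at chr10:15051356-15051602. These probes are shown because each is the single probe behind its gene's values, and the rest of the transcript was not measured.
Ephx2: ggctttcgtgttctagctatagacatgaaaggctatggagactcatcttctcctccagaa
Haghl: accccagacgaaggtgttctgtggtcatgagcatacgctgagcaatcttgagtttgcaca

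Ephx2 read -6.91, -7.48 and -7.64 at 3 weeks, where 2 of the 3 arrays were well above background, and -3.46, -3.55 and -3.83 at 6 weeks. The ages stood apart by 3.73 ± 0.19 (adjusted p = 8.8e-09), while the arrays labelled SHR differed by -3.84 and WKY by 0.19. Nppa, the precursor of atrial natriuretic peptide, read -4.52, -4.49 and -4.37 at 3 weeks and -3.07, -3.17 and -3.24 at 6 weeks. Its difference of 1.30 ± 0.08 stood against -1.33 in the arrays labelled SHR and 0.06 in WKY. Haghl, at 1.84 ± 0.07 against -2.03, and Myoc, the myocilin gene, at 1.85 ± 0.09 against -1.74, were also higher at 6 weeks under the SHRSP label and lower under the SHR label.

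**Figure D1:**
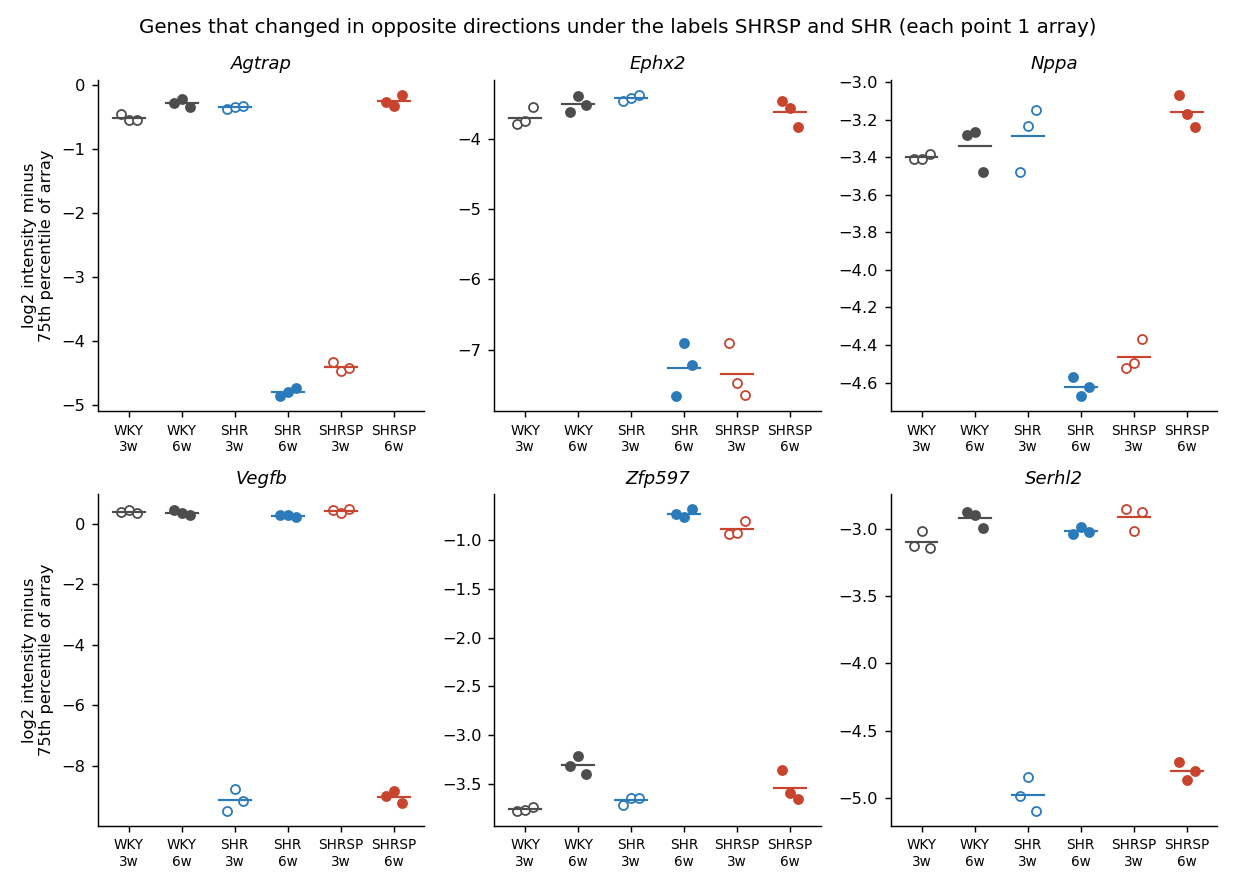
Each point is 1 array and each bar the mean of 3, as log2 intensity minus the 75th percentile of the array, for 6 genes in the 6 groups (open points 3 weeks, filled points 6 weeks). The 3-week arrays labelled SHRSP lie with the 6-week arrays labelled SHR, and the 6-week arrays labelled SHRSP with the 3-week arrays labelled SHR; Agtrap, for example, lies between -4.86 and -4.33 in the first pair of groups and between -0.36 and -0.15 in the second.

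In all, 39 genes (0.184% of those tested) were called in opposite directions under the SHRSP and SHR labels with a difference of at least 1 in each, 18 higher and 21 lower at 6 weeks under the SHRSP label. Zfp597, a zinc finger gene, fell by 2.65 (SE 0.07) under the SHRSP label and was 2.94 higher at 6 weeks under the SHR label. Serhl2, a serine hydrolase-like gene, Zfp296, a zinc finger gene, and Rgs11, which dampens G protein signals, fell by 1.89, 1.89 and 2.02 and were higher under the SHR label by 1.96, 2.53 and 2.39. Defb17, a beta-defensin, was at least 33.0-fold lower at 6 weeks. The alpha-globin gene Hba-a3 was at least 95.4-fold and the immune receptor gene Pira2 at least 3.29-fold higher. The median size of the difference over the 39 genes was 0.0747 when averaged over the 2 labels and 0.184 in WKY. In the average 9 of the 39 were called, beside 36.6% of all genes raised and 13.3% lowered. In WKY 14 of the 39 were called, beside 44.4% of all genes. The 39 were selected on the SHRSP and SHR differences, which are therefore a description. The average is built from those same 2 differences, so its small size follows largely from the selection; the WKY values were not used to select.

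Over all genes, 4968 of 21207 genes (23.4%) were called between 3 and 6 weeks in the arrays labelled SHRSP, 3680 raised (17.4%) and 1288 lowered (6.07%). Most differences were small, with 4300 below 1.5-fold and 159 at 2-fold or more. The split between raised and lowered depended on the scaling, since raised genes made up 74.1% of calls with the 75th percentile, 58.2% with the median of each array and 45.2% after quantile normalization. With slide as a random block 2051 genes were called, of which every one had been called in the same direction without it. Leaving out 3-week replicate 1 gave 3311 calls and leaving out 3-week replicate 2 gave 3287. In WKY 44.4% of genes were called (23.1% raised and 21.3% lowered) and in the arrays labelled SHR 48.2% (32.3% and 15.8%); these comparisons share no array with that of the SHRSP label. The change under the SHRSP label differed from that in WKY at 30.7% of genes, above it at 20.5% and below it at 10.2%. It differed from the change under the SHR label at 18.1%, above at 9.68% and below at 8.44%. These splits moved with the scaling as well: genes above made up 66.9% of the differences from WKY with the 75th percentile and 44.9% after quantile normalization, and 53.4% of the differences from the SHR label with the 75th percentile and 68.3% with the median of each array. Of the 4968 genes, 1862 were called the same way and 611 the opposite way in WKY, and 2280 and 624 in the arrays labelled SHR. The average over the labels SHR and SHRSP called 36.6% of all genes raised and 13.3% lowered, among them 3909 of the 4968 in the same direction and 76 in the opposite one.

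The genes that changed with age in the same direction under all 3 strain labels were 699 raised (3.3%) and 291 lowered (1.37%). Among those with an established symbol whose 6 arrays each lay well above background, with no overlap between the ages, the 12 largest rises included metabolic enzymes and genes of the choroid plexus and of immune cells. Qdpr, the dihydropteridine reductase that restores the cofactor of monoamine synthesis, read 3.42, 3.4003 and 3.58 at 3 weeks and 4.47, 4.64 and 4.54 at 6 weeks. All 6-week arrays were higher, by 1.09 ± 0.06 (adjusted p = 1.7e-08), beside 0.85 under the SHR label and 0.76 in WKY. Acsm5, of the medium-chain acyl-CoA synthetases, read -3.23 on all 3 arrays of 3 weeks and -1.99, -1.98 and -2.01 at 6 weeks. It rose by 1.24 ± 0.06 (adjusted p = 1.0e-08), by 1.05 under the SHR label and by 0.49 in WKY. Smim5, which encodes a small membrane protein, rose most, by 1.57 ± 0.13 against 1.06 and 0.80, although the other probes of this gene gave differences down to 0.53.

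The remaining rises were of similar size. Slc4a5, a sodium bicarbonate cotransporter of the choroid plexus, read -6.29, -6.20 and -6.56 at 3 weeks and -5.03, -5.54 and -5.50 at 6 weeks. It rose by 0.99 ± 0.22 (adjusted p = 0.0058), by 0.78 under the SHR label and by 0.94 in WKY. Spef2, required for sperm flagella and motile cilia, rose by 0.86 ± 0.15, Adrb3, the beta-3 adrenergic receptor, by 0.88 ± 0.15, and the carboxylesterase gene Ces1d by 0.98 ± 0.17. Epb41l4b, of the band 4.1 family, rose by 1.11 ± 0.12, Ptpn22, a phosphatase of lymphoid cells, by 1.07 ± 0.14, RT1-Da, the alpha chain of a class II histocompatibility molecule, by 0.85 ± 0.10, the interleukin 17 receptor family gene Il17re by 0.84 ± 0.08 and the gene C1h10orf90 by 0.90 ± 0.09. Of these 5, Epb41l4b and Il17re rose more than in either other label, and Ptpn22, RT1-Da and C1h10orf90 more than under the SHR label (adjusted p under 0.05 for the difference).

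Under the same limits Pnlip, pancreatic lipase, had the largest of the shared falls under the SHRSP label, close to that of Fcrl2. Its probe spans 2358 bases of the plus strand at rn4 chr1:265114441-265116798 and is shown because it is the single probe behind these values.
Pnlip: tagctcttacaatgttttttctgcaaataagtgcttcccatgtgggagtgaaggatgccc

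Pnlip read -0.98, -1.03 and -1.01 at 3 weeks and -2.15, -2.21 and -2.43 at 6 weeks. The ages did not overlap, and the difference of -1.26 ± 0.07 (adjusted p = 3.7e-08) stood beside -1.41 under the SHR label and -1.30 in WKY. Mkrn3, a maternally imprinted gene that restrains the onset of puberty, read -2.47, -2.52 and -2.79 at 3 weeks and -3.68, -3.84 and -3.65 at 6 weeks. It fell by 1.13 (SE 0.08, adjusted p = 2.3e-07), by 1.26 under the SHR label and by 0.88 in WKY. Fcrl2, an Fc receptor-like gene, fell by 1.25 (SE 0.14), by 1.21 and by 1.11 in the same order. For Pnlip, Mkrn3 and Fcrl2 neither difference between labels passed the test.

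Lyve1, a hyaluronan receptor of lymphatic vessels and border macrophages, fell by 0.69 (SE 0.14), by 0.68 under the SHR label and by 0.97 in WKY. Casr, the calcium-sensing receptor, which newly formed oligodendrocytes express, fell by 0.65 (SE 0.07), less than the 1.17 under the SHR label. Tff3, a trefoil peptide, fell by 0.69 (SE 0.11), Ccn2, a matricellular growth factor, by 0.68 (SE 0.08), and Amn, which encodes amnionless of the cobalamin receptor, by 0.67 (SE 0.07). Ceacam4 fell by 1.01 (SE 0.07), Klhl35 by 0.82 (SE 0.07) and C10h16orf89 by 0.72 (SE 0.13). Pimreg, a regulator of mitosis, fell by 0.68 (SE 0.14) on its brightest probe, while its other probe gave 0.41. Casr and C10h16orf89 fell less than under the SHR label, while Ceacam4 fell more than under both other labels and Klhl35 more than in WKY and less than under the SHR label.

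**Figure D2:**
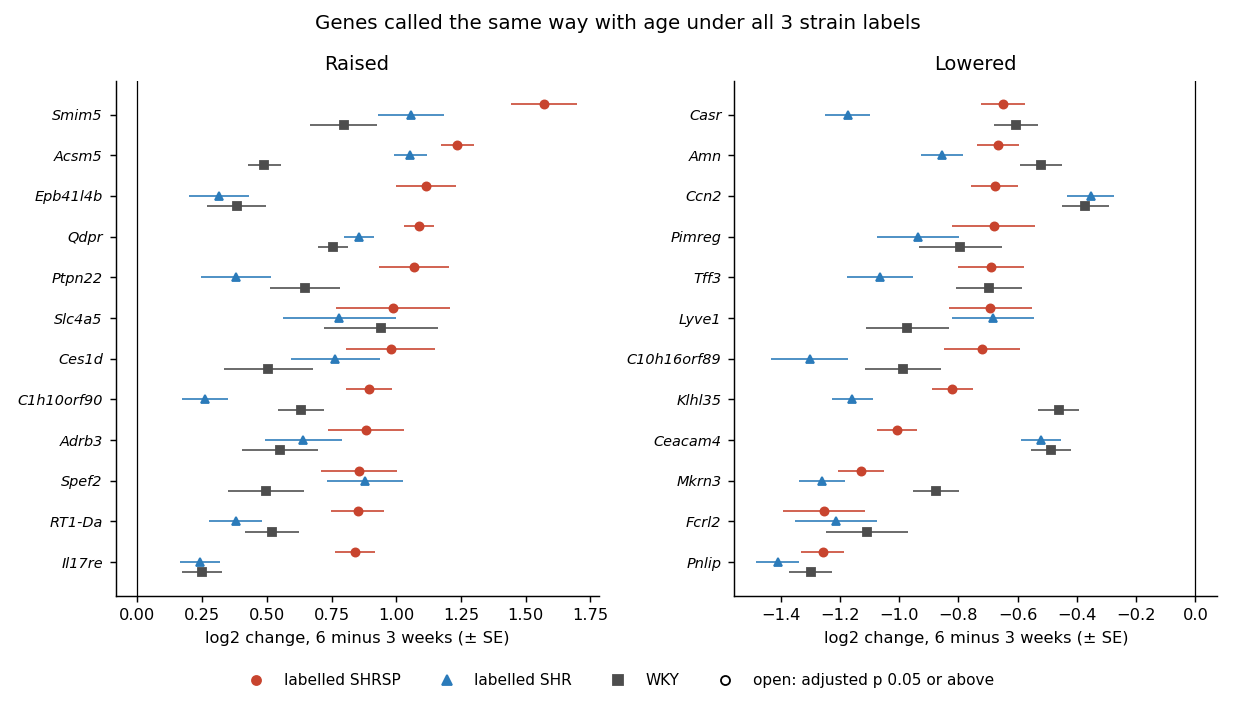
The log2 change from 3 to 6 weeks with its SE (n = 3 arrays per group) is plotted for the 24 named genes called the same way under all 3 strain labels, 12 raised on the left and 12 lowered on the right. Circles are the arrays labelled SHRSP, triangles those labelled SHR and squares WKY; Pnlip lies between -1.26 and -1.41 in the 3, while Acsm5 spreads from 0.49 in WKY to 1.24 under the SHRSP label.

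Gene lists of cell types and pathways were then read against the share of all genes called, 17.4% raised and 6.07% lowered, and the median change of all genes, 0.07. The lists were chosen with earlier results of these data known.

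**Figure D3:**
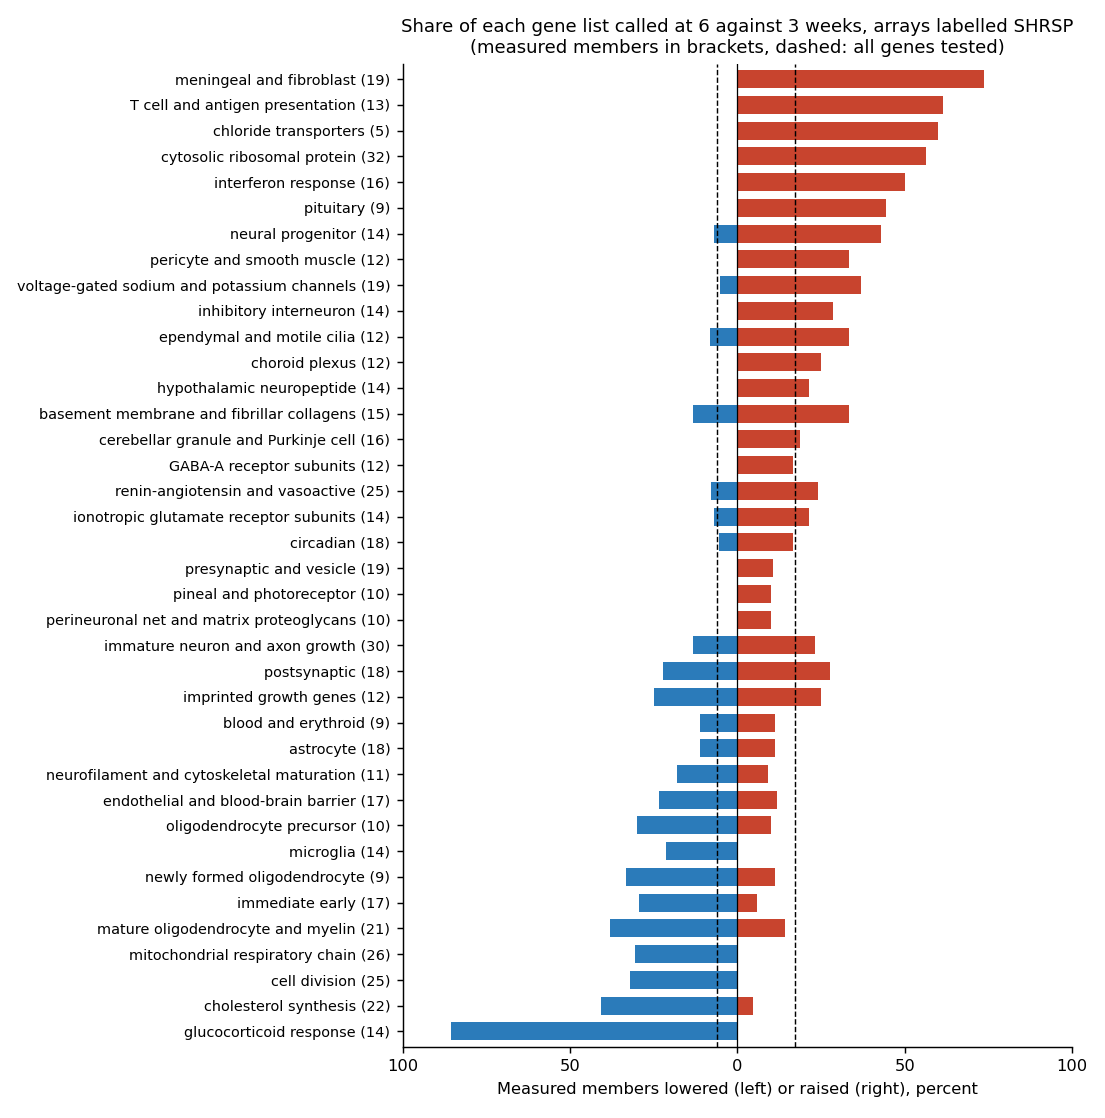
For 38 gene lists, bars give the percentage of measured members lowered (blue, left) or raised (red, right) at 6 weeks in the arrays labelled SHRSP, with the number measured in brackets; dashed lines mark all genes tested, 6.07% and 17.4%. The meningeal and fibroblast list has 14 of 19 members raised and the glucocorticoid response list 12 of 14 lowered.

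Genes of cell division were lowered in part. Of 25 measured members 8 were lowered and none raised, with a median of -0.14, and 11 and 17 were lowered in WKY and under the SHR label. Cdk1, the kinase that drives entry into mitosis, read -2.18, -2.40 and -2.48 at 3 weeks and -2.87, -3.13 and -2.997 at 6 weeks, a fall of 0.65 (SE 0.08, adjusted p = 6.8e-05) with no overlap. Bub1 of the spindle checkpoint fell by 0.57, Ube2c of the anaphase-promoting complex by 0.54 and the spindle protein gene Nusap1 by 0.49. With slide as a random block 4 members were lowered, and without 3-week replicate 1 or 6-week replicate 2 there were 5. The neural progenitor list went mostly the other way, with 6 of 14 raised, 1 lowered and a median of 0.24. Vim, the intermediate filament of radial glia and astrocytes, rose by 0.31 ± 0.06, and Sox4, a transcription factor of newborn neurons, fell by 0.49 (SE 0.07). Only 3 progenitor members were raised with slide as a random block or without 3-week replicate 1, 3-week replicate 2 or 6-week replicate 1, and 2 after quantile normalization.

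Oligodendrocyte genes were lowered in part, relative to the other genes of the same arrays. Of 21 myelin and mature oligodendrocyte genes 8 were lowered and 3 raised (median -0.10), compared with 8 and 3 in WKY and 14 and 4 under the SHR label. Cldn11, the claudin of myelin tight junctions, read 1.010, 1.003 and 0.971 at 3 weeks and 0.77, 0.55 and 0.55 at 6 weeks. It fell without overlap by 0.37 (SE 0.06, adjusted p = 5.0e-04), beside 0.45 in WKY, and by less than the 0.88 under the SHR label by the test of the difference. Ppp1r14a, a phosphatase inhibitor of mature oligodendrocytes, rose by 0.37 ± 0.04. Its change lay 0.64 above that under the SHR label by the test of the difference (adjusted p = 1.8e-06). From the change in WKY it differed by only -0.02, which did not pass the test. Of 9 genes of newly formed oligodendrocytes 3 were lowered and 1 raised, and Enpp6, their choline phosphodiesterase, fell by 0.27 (SE 0.05). Of 10 precursor genes 3 were lowered and 1 raised, with Neu4, a sialidase, falling by 0.53 (SE 0.06) and C1ql1, a complement-like secreted protein, by 0.45 (SE 0.09). The summed level of the 21 myelin genes, as a multiple of the 75th percentile, ran from 282 to 296 at 3 weeks and from 279 to 305 at 6 weeks, so it overlapped between the ages.

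Cholesterol synthesis, which supplies growing myelin, was lowered in 9 of 22 genes and raised in 1, with a median of -0.14; 13 genes were lowered in WKY and 20 under the SHR label. Fdps, farnesyl diphosphate synthase, read 1.88, 1.87 and 1.96 at 3 weeks and 1.65, 1.497 and 1.35 at 6 weeks. It fell without overlap by 0.40 (SE 0.06, adjusted p = 6.2e-04), beside 0.57 under the SHR label and 0.63 in WKY, and Sqle, squalene epoxidase, by 0.28 (SE 0.04). With slide as a random block the counts of lowered genes were 5 for cholesterol synthesis and 5 for myelin, and after quantile normalization 14 cholesterol synthesis genes were lowered.

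Several neuronal lists held fewer calls under the SHRSP label than in WKY, where more genes were called in all. Voltage-gated sodium and potassium channel genes were raised in 7 of 19 and lowered in 1 (median 0.16), while 13 were raised in WKY and 12 under the SHR label. Kcna2, a delayed rectifier subunit of the axon, read -0.33, -0.30 and -0.24 at 3 weeks and 0.05, 0.01 and 0.20 at 6 weeks. It rose by 0.38 ± 0.06 (adjusted p = 8.8e-04), and Kcnc1, the channel of fast-spiking neurons, by 0.42 ± 0.09. Scn3a and Scn4b, sodium channel subunits, were each raised by 0.26 ± 0.06, with adjusted p = 0.0666 and 0.0783 when slide was a random block, under which 2 channel genes were raised; 4 were raised after quantile normalization or without 3-week replicate 1. Of 12 GABA-A receptor genes 2 were raised and none lowered, against 8 raised in WKY. These were Gabra4 (0.17 ± 0.05) and Gabrb1 (0.22 ± 0.07), with adjusted p = 0.136 and 0.0598 with slide as a random block, and neither call held without 3-week replicate 1, 3-week replicate 2 or 6-week replicate 3, nor did that of Gabrb1 without 6-week replicate 1.

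Of 14 ionotropic glutamate receptor genes 3 were raised and 1 lowered. Grin2a, the NMDA receptor subunit that replaces the juvenile one during development, differed by 0.20 ± 0.06, with adjusted p = 0.131 with slide as a random block and 0.078 after quantile normalization. Its call was also lost without 3-week replicate 1, 3-week replicate 3 or 6-week replicate 3, and without 3-week replicate 1 the list had 1 raised gene. Of 5 chloride transporters 3 were raised, the largest Slc12a7, a potassium-chloride cotransporter, by 0.47 ± 0.06, while its second probe gave 0.23. With slide as a random block, after quantile normalization or without 3-week replicate 2, 1 chloride transporter was raised. Presynaptic genes were raised in 2 of 19, among them Syt2, the fast calcium sensor of vesicle release, by 0.26 ± 0.05. Postsynaptic genes split into 5 raised and 4 lowered of 18, with 1 and 1 under slide as a random block, 2 raised and 2 lowered without 3-week replicate 2, and 3 raised without 3-week replicate 1 or 6-week replicate 3. Of 10 genes of perineuronal nets and matrix 1 was raised, Hapln4, a link protein of nets, by 0.30 ± 0.06. Immature neuron and axon growth genes had 7 raised and 4 lowered of 30, with Cxcr4, a chemokine receptor of migrating neurons, raised by 0.70 ± 0.09, more than under either other label, and Marcksl1, an actin-binding growth protein, lowered by 0.28 (SE 0.06). Of that list 3 were raised with slide as a random block or without 3-week replicate 1, and 4 after quantile normalization or without 6-week replicate 2 or 6-week replicate 3. Cerebellar genes were raised in 3 of 16 and inhibitory interneuron genes in 4 of 14 (2 with slide as a random block), and neurofilament and cytoskeletal genes had 1 raised and 2 lowered of 11.

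Genes of the meninges and of fibroblasts were the list raised most often. Of 19 measured members 14 were raised and none lowered (17.4% of all genes were raised), with a median of 0.32, compared with 7 raised and 4 lowered in WKY and 4 and 2 under the SHR label. Ptgds, the prostaglandin D synthase that the leptomeninges secrete into cerebrospinal fluid, was read by a probe with a span of 470 bases on the minus strand at rn4 chr3:3633310-3633779 and is printed as a gene of that list with little change under the SHR label.
Ptgds: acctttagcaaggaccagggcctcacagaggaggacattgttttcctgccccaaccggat

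Ptgds read 6.11, 6.03 and 6.01 at 3 weeks and 6.60, 6.62 and 6.59 at 6 weeks. The rise of 0.55 ± 0.05 (adjusted p = 2.5e-06) stood beside 0.47 in WKY and -0.11 under the SHR label, and the difference from the SHR label, 0.66, passed the test. Igf2, the fetal growth factor that the meninges and choroid plexus go on expressing, read 2.95, 3.00 and 2.87 at 3 weeks and 3.75, 3.65 and 3.62 at 6 weeks. It rose by 0.74 ± 0.05 (adjusted p = 2.2e-07), against 0.37 in WKY and 0.32 under the SHR label, and both differences passed the test. Fmod, a small collagen-binding proteoglycan, rose by 0.74 ± 0.07, Crabp2, a retinoic acid binding protein of the meninges, by 0.72 ± 0.08, and Igfbp2, a binding protein of Igf2, by 0.55 ± 0.07. The change lay above that in WKY for 9 members (20.5% of all genes) and above that under the SHR label for 13 (9.68%). The summed level of the list, as a multiple of the 75th percentile, lay between 96.0 and 103 at 3 weeks and between 144 and 147 at 6 weeks, without overlap. Bright members such as Ptgds weigh most in this sum, so it does not speak for the list as a whole. In WKY the sum also rose without overlap, from 81.6 to 87.3 at 3 weeks to 104.7 to 114.3 at 6 weeks. Under the SHR label it was 108.4 to 116.3 and 107.5 to 112.2. A higher sum at 6 weeks was thus not particular to the SHRSP label. Leaving out any 1 of the 6 arrays left 13 to 15 members raised, slide as a random block left 11, and in the average over the labels SHR and SHRSP there were 11. How much meningeal tissue each brain carried was not tested.

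Lists of related borders and vessels held fewer calls. Choroid plexus genes were raised in 3 of 12 and lowered in none (median 0.36), namely Slc4a5, Igfbp2 and Kcnj13, a potassium channel of that epithelium, at 0.84 ± 0.22 with adjusted p = 0.0803 with slide as a random block. The call of Kcnj13 was also lost without 3-week replicate 3 or 6-week replicate 1. Basement membrane and collagen genes split into 5 raised and 2 lowered of 15, the latter including Sparc, a secreted matrix protein, which fell by 0.33 (SE 0.05). Pericyte and smooth muscle genes were raised in 4 of 12, with Myh11, smooth muscle myosin, up by 0.74 ± 0.10, beside 0.97 in WKY and 0.51 under the SHR label. Of this list 2 were raised with slide as a random block, or without 3-week replicate 1, 3-week replicate 3, 6-week replicate 1 or 6-week replicate 2. After quantile normalization 2 were raised and 2 lowered, and 1 was lowered without 6-week replicate 1 or 6-week replicate 3. Endothelial genes were lowered in 4 and raised in 2 of 17. Slc2a1, the glucose transporter of the blood-brain barrier, fell by 0.30 (SE 0.06) while it was 0.27 higher in WKY, and Mfsd2a, the lipid transporter of the same barrier, fell by 0.37 (SE 0.05). Ependymal and cilia genes were raised in 4 and lowered in 1 of 12, among them Foxj1, the master regulator of motile cilia, by 0.25 ± 0.06. With slide as a random block, after quantile normalization, or without 3-week replicate 2 or 6-week replicate 3, 1 of them was raised, and 2 without 3-week replicate 3 or 6-week replicate 2. Imprinted growth genes split into 3 raised and 3 lowered of 12, with Igf2 up and Mest down by 0.22 (SE 0.04). With slide as a random block, after quantile normalization or without 3-week replicate 3, 1 imprinted gene was raised.

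The T cell and antigen presentation list was raised in part. Of its 13 measured members 8 were raised and none lowered (17.4% and 6.07% of all genes), with a median of 0.42, and 3 and 6 were raised in WKY and under the SHR label. Cd74, the class II invariant chain, read -3.11, -2.99 and -2.79 at 3 weeks and -1.85, -1.90 and -2.20 at 6 weeks. It rose by 0.98 ± 0.13 (adjusted p = 1.1e-04), against 0.25 in each other label, and both differences passed the test. RT1-Bb, a class II beta chain, rose by 0.82 ± 0.09 and RT1-A1, a class I heavy chain, by 0.55 ± 0.04, both more than in WKY and under the SHR label. The T cell genes of the list, named here after their values were seen, did not pass the test, with Cd3e at 0.26, Cd3g at 0.06 and Lck, a kinase of the T cell receptor, at 0.34.

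Interferon-responsive genes were raised in 8 of 16 and lowered in none (median 0.43), with 3 raised in WKY and 5 under the SHR label. Cxcl10, an interferon-induced chemokine, read -7.14, -6.93 and -8.04 at 3 weeks, where 2 of 3 arrays were well above background, and -5.36, -5.03 and -5.60 at 6 weeks. It rose by 2.04 ± 0.29 (adjusted p = 2.7e-04), against -0.12 in WKY and 0.17 under the SHR label. Gbp5, a guanylate-binding protein, rose by 0.58 ± 0.09 and Ifi27 by 0.52 ± 0.10. The second probe of Gbp5 gave 0.18. Leaving out any 1 array left 7 or 8 genes of the T cell and antigen presentation list and 6 to 9 interferon genes raised, and slide as a random block left 7 and 6.

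Microglial genes did not share that rise. Of 14 measured 3 were lowered and none raised (median -0.15), while 12 were lowered in WKY. P2ry12, the purinergic receptor of surveying microglia, read 0.71, 0.56 and 0.65 at 3 weeks and 0.14, 0.15 and 0.09 at 6 weeks, a fall of 0.51 (SE 0.09, adjusted p = 9.5e-04). Tmem119, another microglial surface gene, was lower by 0.63, with adjusted p = 0.0553 with slide as a random block, under which 1 microglial gene was lowered. The second probe of Tmem119 gave -0.38. Astrocyte genes had 2 raised and 2 lowered of 18, with Gfap, the astrocytic filament, raised by 0.24 ± 0.05, beside 0.30 in WKY and -0.01 under the SHR label.

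Glucocorticoid-responsive genes were the list lowered most often. Of 14 measured members 12 were lowered and none raised (6.07% of all genes were lowered), with a median of -0.55, whereas in WKY 4 were lowered and 2 raised (median 0.05) and under the SHR label 5 and 4 (median 0.07). Mt2A, a metallothionein, read 3.12, 3.03 and 3.30 at 3 weeks and 2.37, 2.21 and 2.40 at 6 weeks. It fell by 0.82 (SE 0.08, adjusted p = 3.9e-06), while the differences of 0.17 in WKY and 0.18 under the SHR label did not pass the test. Sgk1, the serum and glucocorticoid-regulated kinase, read 0.46, 0.08 and 0.75 at 3 weeks and -0.75, -0.88 and -1.14 at 6 weeks. The ages did not overlap, and it fell by 1.35 (SE 0.18, adjusted p = 1.3e-04), against 0.00 in WKY and -0.47 under the SHR label.

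Angptl4, a secreted inhibitor of lipoprotein lipase, read 0.79, 0.53 and 0.75 at 3 weeks and -0.74, -0.54 and -0.80 at 6 weeks. It fell by 1.38 (SE 0.16), while WKY and the SHR label gave -0.46 and -0.35. Klf9, a transcription factor induced by glucocorticoid and thyroid hormone, fell by 0.54 (SE 0.06) and Mt1, the other metallothionein of the list, by 0.63 (SE 0.06). The falls of Mt2A, Sgk1, Angptl4, Klf9 and Mt1 each differed from WKY and from the SHR label by the test. Over the list, 11 changes lay below WKY (10.2% of all genes) and 10 below the SHR label (8.44%), while 1 lay above WKY. The summed level of the list, in which bright members weigh most, was 41.8 to 48.1 at 3 weeks and 32.6 to 34.9 at 6 weeks. In WKY it also fell without overlap, from 38.8 to 39.6 at 3 weeks to 32.6 to 33.8 at 6 weeks. Under the SHR label it was 40.2 to 43.6 and 42.7 to 46.6. A lower sum at 6 weeks was thus not particular to the SHRSP label. The members not called, named here after their values were seen, were Per1 at -0.14 ± 0.11 and Cdkn1a at 0.06 ± 0.09. Without any 1 array 9 to 11 members were lowered, with slide as a random block 8, after quantile normalization 12, and in the average over the labels SHR and SHRSP 9 were lowered and 1 raised, with a median of -0.32. The sources used here state neither the time of day nor the handling before sampling, and their part was not tested.

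Immediate early genes, which neurons transcribe within minutes of activity, rose with age in WKY (13 of 17 raised, median 0.40) and under the SHR label (12 raised, median 0.51), but under the SHRSP label 5 were lowered and 1 raised, with a median of -0.08. With slide as a random block 4 were lowered and none raised under the SHRSP label. Without any 1 of the 6 arrays 5 were lowered and 0 to 2 raised, with medians from -0.10 to -0.02. Fos read -3.05, -3.16 and -3.15 at 3 weeks and -4.13, -3.95 and -4.19 at 6 weeks, a fall of 0.97 (SE 0.09, adjusted p = 7.7e-06). WKY and the SHR label gave 0.77 and 0.86, and both differences passed the test. Arc, the activity-regulated synaptic protein, fell by 0.87 (SE 0.13) and the transcription factor Egr1 by 0.34 (SE 0.08), again apart from both other labels. Of the 17 changes, 9 lay below WKY (10.2% of all genes) and 9 below the SHR label (8.44%), while 1 lay above WKY. In the average over the labels SHR and SHRSP, Arc was at 0.07, Egr1 at 0.21 and Fos at -0.06, and 10 members of the list were raised and none lowered. The raised member, Egr3, differed by 0.99 ± 0.31 and was singled out after its values were seen; its 6-week arrays read -5.11, -5.45 and -3.61, and its adjusted p was 0.172 with slide as a random block. Its call was also lost without each of the 3-week replicates, and its second probe gave 0.41. Circadian clock genes were raised in 3 and lowered in 1 of 18, against 12 raised in WKY and 12 under the SHR label, and Nr1d1, a nuclear receptor of the clock, rose by 0.58 ± 0.07. With slide as a random block 1 clock gene was raised and none lowered, and after quantile normalization 1 was raised and 2 lowered. Without 3-week replicate 1 or 3-week replicate 2 there was 1 raised clock gene. Of the 18 changes 7 lay below WKY (10.2% of all genes) and 6 below the SHR label (8.44%), and 1 lay above each.

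**Figure D4:**
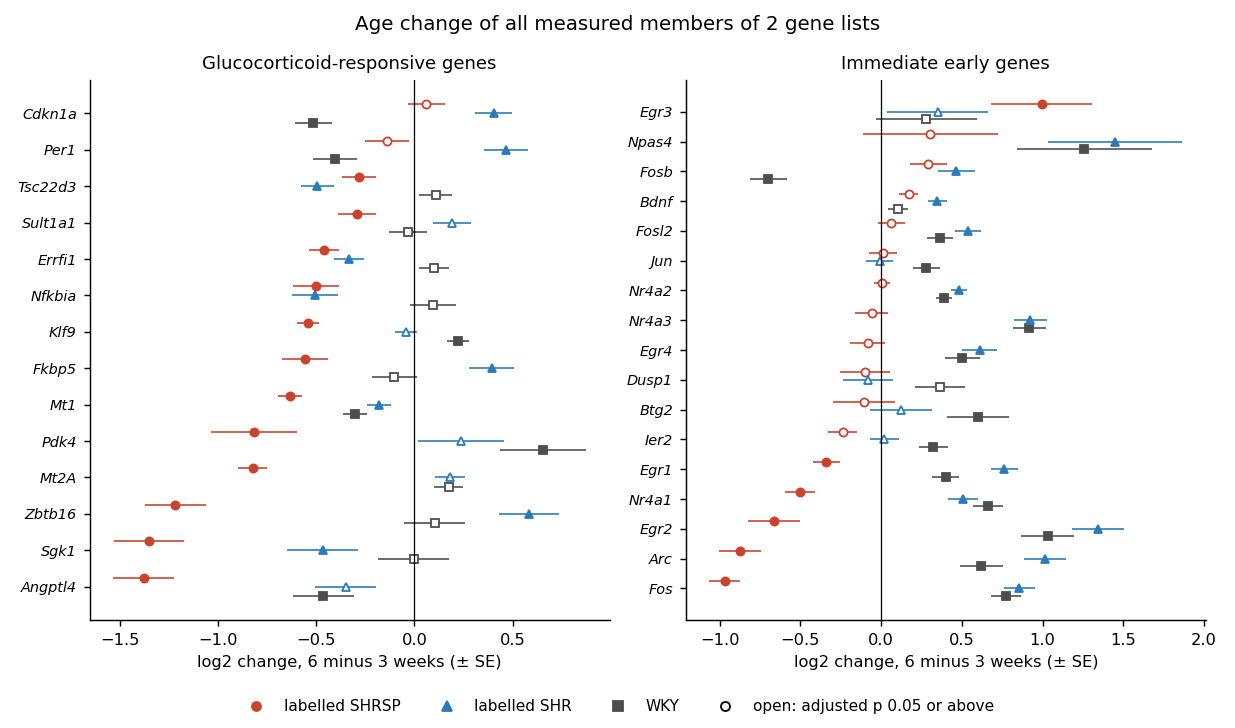
Each row is a measured member of the glucocorticoid response list (left, 14 genes) or of the immediate early list (right, 17 genes), with its log2 change from 3 to 6 weeks and SE (n = 3 arrays per group) in the arrays labelled SHRSP (circles), in those labelled SHR (triangles) and in WKY (squares); open symbols did not pass adjusted p of 0.05. Under the SHRSP label 12 of 14 and 5 of 17 members are lowered, while Fos, at -0.97, stands opposite to 0.77 in WKY and 0.86 under the SHR label.

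Among genes called under the SHRSP label that differed from both other labels, and whose changes there were under 0.5, Angptl4 and Sgk1 had the largest falls. Fam83d, a spindle-associated gene, followed with a fall of 1.23 (SE 0.10), and Myl4, an atrial myosin light chain, read -2.78, -2.81 and -2.77 at 3 weeks and -3.99, -3.96 and -3.86 at 6 weeks. Myl4 fell by 1.15 (SE 0.05, adjusted p = 8.2e-10), against 0.01 in WKY and 0.42 under the SHR label. After Cxcl10, the largest rises were those of the olfactory receptor gene Or1q1, at least 2.82-fold from a level not well above background and with the value of 6-week replicate 1 left out, of C4h12orf60 at 1.42 ± 0.29, and of Serpinb3a, a serine protease inhibitor, at 1.27 ± 0.33. For Serpinb3a the adjusted p was 0.0850 with slide as a random block, and its 6-week arrays read -6.73, -5.21 and -6.63.

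Several low transcripts were near background at 1 of the ages. Hoxb8, a homeobox gene of the spinal cord and caudal hindbrain, read -4.67, -5.11 and -5.94 at 3 weeks and -7.61, -9.27 and -9.32 at 6 weeks, at least 4.31-fold lower. Hoxb7, its neighbour in the Hoxb cluster, was at least 5.02-fold lower, and the second probe of Hoxb8 gave a difference of -1.01. Both were also lowered in WKY and under the SHR label, although WKY replicate 1 of 6 weeks read -4.28 for Hoxb7 and -4.20 for Hoxb8, as high as 3-week arrays. Madcam1, an adhesion molecule for lymphocytes, was at least 2.87-fold lower and was lowered under all 3 labels. With slide as a random block the adjusted p was 0.0721 for Hoxb8, 0.0733 for Hoxb7 and 0.0635 for Madcam1. How far down the brainstem each brain was cut was not tested.

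Pituitary hormone genes differed widely between the 6-week arrays. Gh1, growth hormone, read -10.00, -9.40 and -8.54 at 3 weeks, none well above background, and -6.47, 5.81 and -2.96 at 6 weeks. Replicate 2 of 6 weeks stood far above the others, and the group was at least 92.3-fold higher than at 3 weeks. Without that array the bound for Gh1 was 8.10-fold, against 572-fold without 6-week replicate 1 and 170-fold without 6-week replicate 3. Tshb, the thyrotropin beta chain, read -4.10, 1.98 and -6.42 at 6 weeks and was at least 29.6-fold higher, or at least 5.57-fold without replicate 2, 45.7-fold without replicate 1 and 102-fold without replicate 3 of 6 weeks. Cga, the shared alpha chain, read -1.85, 2.94 and -3.29, a difference of 3.63 ± 1.11. Of 9 pituitary genes 4 were raised, Fshb (1.19 ± 0.33) being the fourth, and none was raised with slide as a random block (adjusted p = 0.205 for Gh1, 0.126 for Tshb, 0.145 for Cga and 0.122 for Fshb). Without 6-week replicate 2 Gh1 was not called (adjusted p = 0.173) and 3 members were raised; the call of Gh1 was also lost without 6-week replicate 3 and without each 3-week replicate. No member was raised without 3-week replicate 1 or without 3-week replicate 2, and 2 were without 3-week replicate 3. The summed level of the list was 1.19 to 1.26 at 3 weeks and 1.67, 1.78 and 74.4 at 6 weeks. Whether pituitary tissue was attached to this brain was not tested.

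**Figure D5:**
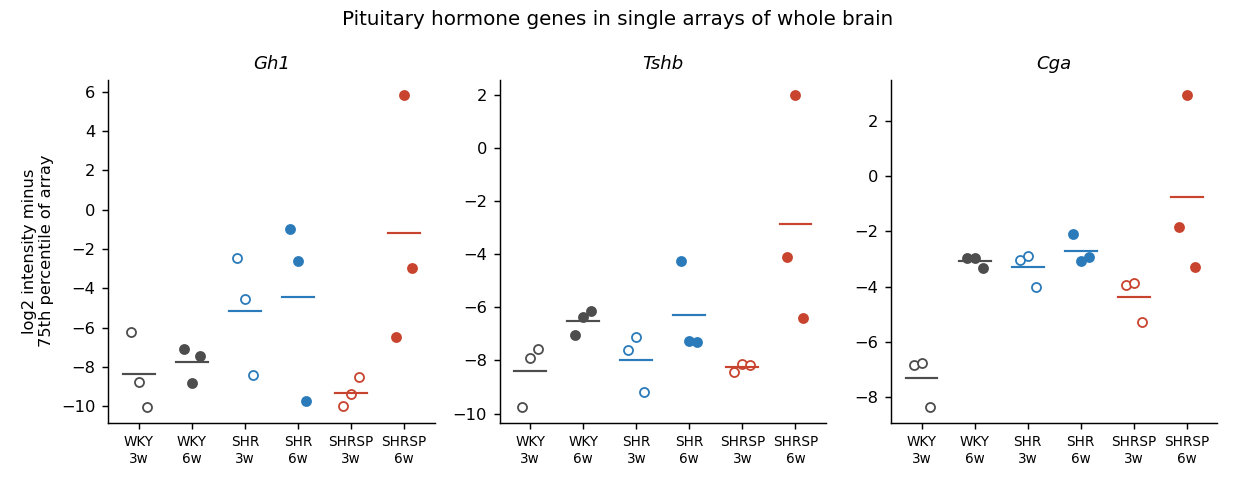
Gh1, Tshb and Cga are plotted for each of the 18 arrays as log2 intensity minus the 75th percentile of the array, with the mean of each group as a bar (open points 3 weeks, filled points 6 weeks). Replicate 2 of the 6-week arrays labelled SHRSP, at 5.81, 1.98 and 2.94, is the highest point in each panel.

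Lists of other adjoining tissues held few calls. Pineal and photoreceptor genes were raised in 1 of 10, Lhx4 (1.14 ± 0.38, adjusted p = 0.180 with slide as a random block; also lost without replicate 1 or replicate 3 of either age), and their summed level was 0.385, 0.429 and 2.06 at 3 weeks against 0.428, 2.58 and 2.79 at 6 weeks. Hypothalamic neuropeptides were raised in 3 of 14, among them Avp, vasopressin, which read 1.07, 1.28 and 1.11 at 3 weeks and 1.81, 1.80 and 2.08 at 6 weeks. It rose by 0.75 ± 0.13 (adjusted p = 0.0015), beside 0.47 in WKY and -0.01 under the SHR label, and the difference from the SHR label passed the test. Blood genes had 1 raised and 1 lowered of 9, Hba-a3 of the label-opposed set and Slc4a1, the anion exchanger of red cells, at -0.74 ± 0.19 with adjusted p = 0.0982 with slide as a random block. The call of Slc4a1 was also lost without 3-week replicate 1 or 6-week replicate 3.

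Of 25 genes of the renin-angiotensin system and other vasoactive pathways 6 were raised and 2 lowered, beside 17.4% and 6.07% of all genes. Agtrap, Nppa, Ephx2 and Vegfb among them belong to the label-opposed set, which leaves Ace, Nos1 and Avp as raised members. Ace, the angiotensin-converting enzyme, named here after its values were seen, rose by 0.69 ± 0.08 (adjusted p = 5.8e-05), more than the 0.27 in WKY and the -0.12 under the SHR label, and both differences passed the test. Nos1, the neuronal nitric oxide synthase, read -4.24, -4.38 and -4.45 at 3 weeks and -3.89, -3.89 and -3.93 at 6 weeks, and rose by 0.45 ± 0.07 (adjusted p = 2.9e-04), beside 0.66 in WKY and 0.39 under the SHR label. The second probe of Nos1 gave 0.20.

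Housekeeping lists moved by small amounts. Cytosolic ribosomal protein genes were raised in 18 of 32 and lowered in none (median 0.16), but after quantile normalization 5 were raised and 4 lowered, and with slide as a random block 5 were raised. Without 3-week replicate 1 there were 10 raised, without 3-week replicate 2 or 6-week replicate 3 there were 6, and without the other arrays up to 20. Rps9 rose by 0.38 ± 0.04 and Rpl30 by 0.26 ± 0.05. Respiratory chain genes were lowered in 8 of 26 and raised in none (median -0.09), against 15 lowered in WKY, with Ndufs3 of complex I at -0.16 ± 0.04 and adjusted p = 0.0642 with slide as a random block. Of the respiratory chain list 1 was lowered with slide as a random block, 15 after quantile normalization, 4 without 3-week replicate 1, and 5 without 3-week replicate 3 or 6-week replicate 2. No member of the sex-linked list was measured.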

How the data were processed

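Per the labels' protocols, whole brains were stored in RNAlater, and total RNA was amplified from an oligo-dT primer and labelled with Cy3 for 1-colour Agilent arrays. Per the file headers, the authors obtained the deposited spot intensity with Agilent Feature Extraction 10.5.1.1, which subtracts the local background and does not scale arrays to each other; coordinates are of rn4. The deposited value table holds the same intensity values on all 44254 rows of each array and was not used.

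Here log2 intensity minus each array's 75th percentile was used, as the deposited intensity is on a linear scale and unscaled between arrays. Control and outlier spots were left out and replicate spots averaged. Probes well above background on all 3 arrays of at least 1 group were kept (24287 of 30367). The brightest kept probe stood for a gene, and genes needed 2 values in every group. Symbols were updated by accession from RefSeq for 17328 probes; 9690 had no gene name. 1 limma fit (limma 3.58.1, R 4.3.3) with 6 group means (12 residual and 1.95 prior degrees of freedom) gave all changes and their differences between labels, two-sided, with Benjamini-Hochberg adjustment. On simulated data for the SHRSP-labelled comparison (21125 genes) 68% of changes of 0.5 and 90% of changes of 1 were recovered, with 8 false calls. The simulated arrays had independent errors and no slide effect. The false calls therefore do not measure errors that come from the 6-week arrays sharing 1 slide.

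The members and lists were chosen with earlier results of these data known. Named genes were, with an established symbol, the 12 largest each way among genes called the same way under all 3 labels and not overlapping between the ages, 6 each way among label-opposed genes with the strain markers Agtrap, Vegfb and Ephx2, 3 each way not above background at 1 age, per list at most 4 called members, taken by adjusted p, and 4 each way differing from both other labels. Of 40 lists, 38 had over 3 measured members. Alternatives were the arrays in the fit, slide, replicate number, scaling, background correction, filter, probe choice, labels and single arrays left out. Slide as a fixed block could not be estimated. Deviations of arrays of equal replicate number correlated at -0.01, -0.11 and -0.08, so the numbers were not taken as pairs. The labels call the replicates biological. The number of arrays limits the precision.
Some members of the lists are not reported here.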

Additional observations from a re-analysis of the deposited data

Results flagged for a closer look

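Of 118 genes named in the report, 51 changed with age differently under the SHRSP label than in WKY, 62 differently than under the SHR label and 41 differently than under both, by the test of the difference itself (adjusted p under 0.05 in the limma fit). Part of these genes were named for such differences, so their share is no result; over all genes the shares were 30.7% and 18.1%. The values below are log2 differences of the SHRSP-labelled change from the WKY change, unless the SHR label is named, and a positive value means a higher change under the SHRSP label. With slide as a random block the counts over all genes fell to 1222 and 1952, and no cause was tested.

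Among the label-opposed genes, Hba-a3 differed from WKY by 7.98, Agtrap by 3.93, Ephx2 by 3.54, Pira2 by 2.44, Haghl by 1.92, Myoc by 1.71 and Nppa by 1.25. Vegfb differed by -9.42, Defb17 by -6.59, Zfp597 by -3.10, Rgs11 by -2.25, Serhl2 by -2.06 and Zfp296 by -2.02. Vegfb, Defb17, Hba-a3 and Pira2 were not well above background at 1 of the ages, so their values are fitted differences and no bounds. In WKY, Pira2 was well above background on 0 arrays and Defb17 on 1 of 6.

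Glucocorticoid-responsive genes lay below WKY, with Sgk1 at -1.35, Mt2A at -0.999, Angptl4 at -0.91, Klf9 at -0.76 and Mt1 at -0.33. Cdkn1a lay above WKY by 0.58, and Per1 differed from the SHR label by -0.60. Immediate early genes lay below WKY as well, with Fos at -1.74, Arc at -1.50 and Egr1 at -0.74, while the clock gene Nr1d1 lay 0.43 above the SHR label, on a list with 1 change above that label and 6 below.

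Of the T cell and antigen presentation list 4 of 13 lay above WKY and 6 above the SHR label, and of the interferon list 2 and 4 of 16; of all genes 20.5% and 9.68% did. The difference from WKY was 2.16 for Cxcl10, 0.73 for Cd74, 0.71 for RT1-Bb, 0.65 for Gbp5, 0.59 for Il17re and 0.30 for RT1-A1. Ptpn22 lay above the SHR label by 0.69 and RT1-Da by 0.47, and P2ry12 of microglia differed from it by -0.70. Meningeal genes gave Igfbp2 at 0.50 and Igf2 at 0.37 above WKY, and Ptgds at 0.66, Crabp2 at 0.60 and Fmod at 0.49 above the SHR label.

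Above the SHR label lay 11 of 21 myelin genes, 5 of 9 genes of newly formed oligodendrocytes and 3 of 10 precursor genes, and 1 newly formed gene lay below it. Of all genes 9.68% lay above that label and 8.44% below it. The named ones differed by 0.64 for Ppp1r14a, 0.56 for Enpp6, 0.53 for Neu4, 0.52 for Casr and 0.51 for Cldn11. Of the cell division list 3 lay above and 2 below WKY of 25, and of the progenitor list 1 and 1 of 14. These counts are no more than the shares of all genes, 20.5% above and 10.2% below WKY. The named members gave -0.60 for Sox4, -0.43 for Ube2c and -0.35 for Bub1 against WKY, and 0.42 for Cdk1 and 0.35 for Vim against the SHR label. Fam83d, which is on neither list, gave -0.90 against WKY. Above and below WKY lay 4 and 4 of 17 endothelial genes, and 5 and 1 of 15 basement membrane and collagen genes, to be read against the same 20.5% and 10.2%. The members named here all lay below WKY, by -0.57 for Slc2a1, -0.38 for Sparc and -0.33 for Mfsd2a. Ace, of the renin-angiotensin list, differed from WKY by 0.42.

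Among the remaining genes, Or1q1 differed from WKY by 1.98, C4h12orf60 by 1.79, Serpinb3a by 1.53, Smim5 by 0.77, Acsm5 by 0.74 and Epb41l4b by 0.73. Cxcr4 differed from WKY by 0.58, Rps9 by 0.54, Qdpr by 0.33, Sqle by 0.19, Klhl35 by -0.36, Ceacam4 by -0.52 and Myl4 by -1.16. Against the SHR label the difference was 0.75 for Avp, 0.63 for C1h10orf90, 0.58 for C10h16orf89, 0.39 for Slc12a7, 0.30 for Marcksl1 and 0.26 for Gfap.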

How the results depend on the processing

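The count of called age changes under the SHRSP label was 4968, and 2051 with slide as a random block, 10565 for the average over the labels SHR and SHRSP, and 10405 for 6-week arrays labelled SHR against 3-week arrays labelled SHRSP. Leaving out single arrays gave 3287 to 4334. The replicate block over the 6 arrays alone gave 1105, on a fit of 6 arrays; the numbers do not pair these arrays, and it ended 36 of the calls of named genes. Differences from WKY numbered 6500, 1222 with slide as a random block and 5309 to 6578 without single arrays. Differences from the SHR label numbered 3842, 1952 with slide as a random block and 2724 to 6408 without single arrays, the highest without SHR replicate 1 of 3 weeks. Genes called the same way under all 3 labels numbered 990, 351 with slide as a random block and 726 to 1032 without single arrays; these alternatives were chosen after seeing the data. Label-opposed genes numbered 39, 21 after normexp background correction and 37 to 42 without single arrays.

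Over all other alternatives those counts stayed within 1.5 times, and every called gene named kept its direction, apart from the 2 alternatives that mix labels. In the average over the labels SHR and SHRSP the change was -0.15 for Agtrap, -0.0567 for Ephx2, -0.0940 for Haghl, -0.0149 for Nppa, 0.0707 for Arc, 0.21 for Egr1, 0.51 for Defb17, 0.19 for Rgs11, 0.0366 for Serhl2, 0.32 for Zfp296 and 0.15 for Zfp597. For 6-week arrays labelled SHR against 3-week arrays labelled SHRSP it was -0.39 for Agtrap, -0.19 for Haghl, -0.19 for Myoc, -0.16 for Nppa, -0.0823 for Serpinb3a, -0.0388 for Ppp1r14a, -0.0033 for Nr1d1, 1.34 for Arc, 1.201 for Fos, 0.72 for Egr1, 0.56 for Per1, 0.35 for Defb17, 0.24 for Zfp296, 0.16 for Zfp597, 0.0876 for Sgk1 and 0.0672 for Rgs11. By construction the latter replaces the 6-week arrays and the average adds the arrays labelled SHR; no other cause was tested. Calls of 19 named genes ended with slide as a random block. Signal near background limits Ephx2, Cxcl10, Hoxb7, Hoxb8, Madcam1, Gh1 and Tshb.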
